A study of Homo sapiens with 8 samples.

Results

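The enzymes that take methyl and acetyl groups off histones were followed in MM1.S, a human line of malignant plasma cells derived from multiple myeloma. Every listed gene whose name marks it as a lysine demethylase (KDM1 to KDM8), a zinc-dependent deacetylase (HDAC1 to HDAC11) or a sirtuin (SIRT1 to SIRT7) was taken, and 1 antisense name was left out. This gave 35 of the 16295 listed genes: 17 demethylases, 11 deacetylases and 7 sirtuins. The rule used names only and no measured value, and all 35 passed the filter on low values.

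RNA was sequenced in 8 libraries, 2 for each of 4 groups of MM1.S cells grown in the same medium with serum. Cells received 0.5 uM MS177, 0.5 uM MS177N1, 0.5 uM C24 or the solvent DMSO for 24 h. The series concerns EZH2, the enzyme of Polycomb repressive complex 2 (PRC2) that methylates histone H3 at lysine 27 (H3K27). From background knowledge, C24 is an EZH2 inhibitor, MS177 joins C24 by a linker to a ligand of the ubiquitin ligase receptor CRBN and thereby degrades EZH2, and MS177N1 is a related compound used as a control that does not degrade it. A single cell line was used, so the results describe that line.

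Lysine demethylases fall into a pair of chemistries. The KDM1 enzymes are amine oxidases that use FAD, and the KDM2 to KDM8 enzymes carry a Jumonji C (JmjC) domain that needs iron, oxygen and 2-oxoglutarate. KDM6A and KDM6B remove methyl groups from H3K27 and so erase the mark that EZH2 writes. The HDAC enzymes use zinc and remove acetyl groups from histones and other proteins. Most class I members sit in co-repressor complexes such as NuRD, SIN3, NCoR and CoREST, and HDAC inhibitors are used in the treatment of myeloma. Sirtuins remove acyl groups in a reaction that consumes NAD.

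The RefSeq promoter windows of 4 members are shown, all of which rose with MS177. KDM6B is the member with the largest rise. HDAC9, KDM4C and KDM6A are the members whose window holds an AP-1 motif, so that match among them follows from the choice. Other members that rose are not shown. KDM6B and HDAC9 had the lowest adjusted p of the demethylases and deacetylases, and KDM4C and KDM6A hold both of the motifs most often found. Each window runs from 250 bases before to 50 bases after the RefSeq start, is read 5′ to 3′ on the gene's strand and is credited to GRCh38.p14. Capitals mark the E-box CACGTG and the AP-1 motif TGANTCA. The windows lie at chr17:7833967-7834266 for KDM6B, chr7:18495499-18495798 for HDAC9, chr9:6757723-6758022 for KDM4C and chrX:44872938-44873237 for KDM6A, all on the plus strand.
KDM6B: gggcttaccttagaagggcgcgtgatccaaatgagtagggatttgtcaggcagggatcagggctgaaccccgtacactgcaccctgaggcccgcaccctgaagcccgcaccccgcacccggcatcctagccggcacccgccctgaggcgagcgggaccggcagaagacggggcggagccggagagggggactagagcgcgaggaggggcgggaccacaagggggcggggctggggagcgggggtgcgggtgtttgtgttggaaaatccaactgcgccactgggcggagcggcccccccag
HDAC9: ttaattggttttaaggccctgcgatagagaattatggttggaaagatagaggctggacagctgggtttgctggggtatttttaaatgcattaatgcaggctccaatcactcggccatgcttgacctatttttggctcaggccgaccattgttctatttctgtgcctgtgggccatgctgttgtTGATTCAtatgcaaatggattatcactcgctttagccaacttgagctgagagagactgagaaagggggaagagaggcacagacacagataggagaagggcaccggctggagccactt
KDM4C: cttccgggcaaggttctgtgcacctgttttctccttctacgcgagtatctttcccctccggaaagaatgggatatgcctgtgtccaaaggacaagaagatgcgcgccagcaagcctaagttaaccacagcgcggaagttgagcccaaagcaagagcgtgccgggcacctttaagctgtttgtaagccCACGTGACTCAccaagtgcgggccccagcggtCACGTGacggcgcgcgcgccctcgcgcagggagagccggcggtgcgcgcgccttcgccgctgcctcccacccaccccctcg
KDM6A: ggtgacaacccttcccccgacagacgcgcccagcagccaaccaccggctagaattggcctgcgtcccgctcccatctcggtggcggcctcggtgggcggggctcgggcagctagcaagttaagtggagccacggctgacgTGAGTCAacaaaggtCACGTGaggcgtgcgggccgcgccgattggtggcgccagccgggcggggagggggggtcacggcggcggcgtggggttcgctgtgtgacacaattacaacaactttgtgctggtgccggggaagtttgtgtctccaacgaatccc
The KDM6B window held none of the 5 motifs searched. KDM6B had the highest fold change of the 35 members. The HDAC9 window held 1 AP-1 motif. In the KDM4C window 1 E-box shares its last bases with the AP-1 motif, and a separate E-box follows it. The KDM6A window held an AP-1 motif and an E-box side by side.

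Motifs were searched on both strands, in 1 window for each of the 33 members that had any. These are all members but HDAC5 and SIRT7. The shares beside them are over all RefSeq windows, not reduced to 1 per gene or to the genes tested. The E-box CACGTG was present in 4 member windows (KDM4B, KDM4C, KDM6A and SIRT1) and in 7.26% of all 35116 RefSeq windows of that length. The AP-1 motif TGANTCA was present in 3 (HDAC9, KDM4C and KDM6A) and in 7.71% of all windows. The cyclic AMP response element TGACGTCA was present in 1 (SIRT4) and in 1.85% of all windows. The ATF4-C/EBP composite motif TGATGNAA and the E2F motif TTTGGCGC were in 0 member windows, against 3.62% and 0.652% of all windows. These are matches of letters, and factor binding was not measured.

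Between 20000665 and 26619099 reads were assigned to listed genes per library. Levels are given as normalized reads, that is reads divided by the authors' size factor of the library, and changes as log2 fold changes from limma with their standard error (SE). A gene was called at a Benjamini-Hochberg adjusted p under 0.05 over all 14164 genes tested. The labels do not say that replicates were separate cultures, so p-values measure the spread between these libraries, which may be technical. In bulk RNA, fewer cells with a transcript and less of it per cell cannot be told apart. The median SE over all genes was 0.11, the spread between the replicates of a group was larger in MS177 (chi-square over degrees of freedom 8.35) and DMSO (6.32) than in C24 (3.11) and MS177N1 (2.54), and it enters 1 shared estimate in the fit. All 8 plasma-cell markers were present, summing to 87760 to 89540 normalized reads with MS177 and 114100 to 115100 in DMSO, and 1 was higher and 6 lower. Of the markers of other cells, 2 of 6 for T and NK cells were listed (sums of 32.7 to 36.4 with MS177 and 61.5 to 77.0 in DMSO). Of 6 markers of monocytes and granulocytes, 3 were listed (34.3 to 38.4 with MS177 and 7.70 to 12.5 in DMSO). Of 5 stromal and epithelial markers, 5 were listed (87.9 to 103.9 with MS177 and 58.3 to 78.8 in DMSO). The stromal and epithelial sums with MS177N1 (90.2 to 102.8) and C24 (89.9 to 104.0) were near those with MS177. The monocyte marker CD163 had 24.6 and 24.3 normalized reads with MS177 and 0 and 0.961 in DMSO. CD8A, CSF1R, COL1A2 and KRT5 had 0 to 7.74 in any library. The part of these sums in the results was not tested. EZH2 mRNA was at 2819 and 2881 with MS177 and at 2676 and 2687 in DMSO (log2 fold change 0.09, SE 0.05, limma adjusted p = 0.155), which is RNA and says nothing of the protein.

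With MS177 more members rose than fell. Against DMSO, 17 of the 35 rose, 6 fell and 12 were not called. The share called in either direction was 65.7%, near the 57.9% of all genes tested. Over all genes 28.9% were called higher and 29.0% lower, so the share of members that rose was above that of all genes and the share that fell below it. The median log2 fold change was 0.27 over the members and 0.00 over all genes. Of the 17 demethylases, 10 rose and 2 fell (median 0.27, and 0.43 without MS177 replicate 1). Of the 11 deacetylases, 5 rose and 3 fell (median 0.06), and their median turned to -0.08 without MS177 replicate 1 and to -0.04 without DMSO replicate 2. It was 0.22 without MS177 replicate 2, 0.17 without DMSO replicate 1, 0.14 with total-read scaling and 0.20 with the trend over length and GC content removed. Of the 7 sirtuins, 2 rose and 1 fell (median 0.07, and 0.11 without MS177 replicate 1 or 0.15 with total-read scaling). Both MS177 libraries lay above all other 6 libraries in 18 members, below them in 8 and among them in 9; over all genes tested 33.2% lay above and 31.7% below.

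**Figure D1:**
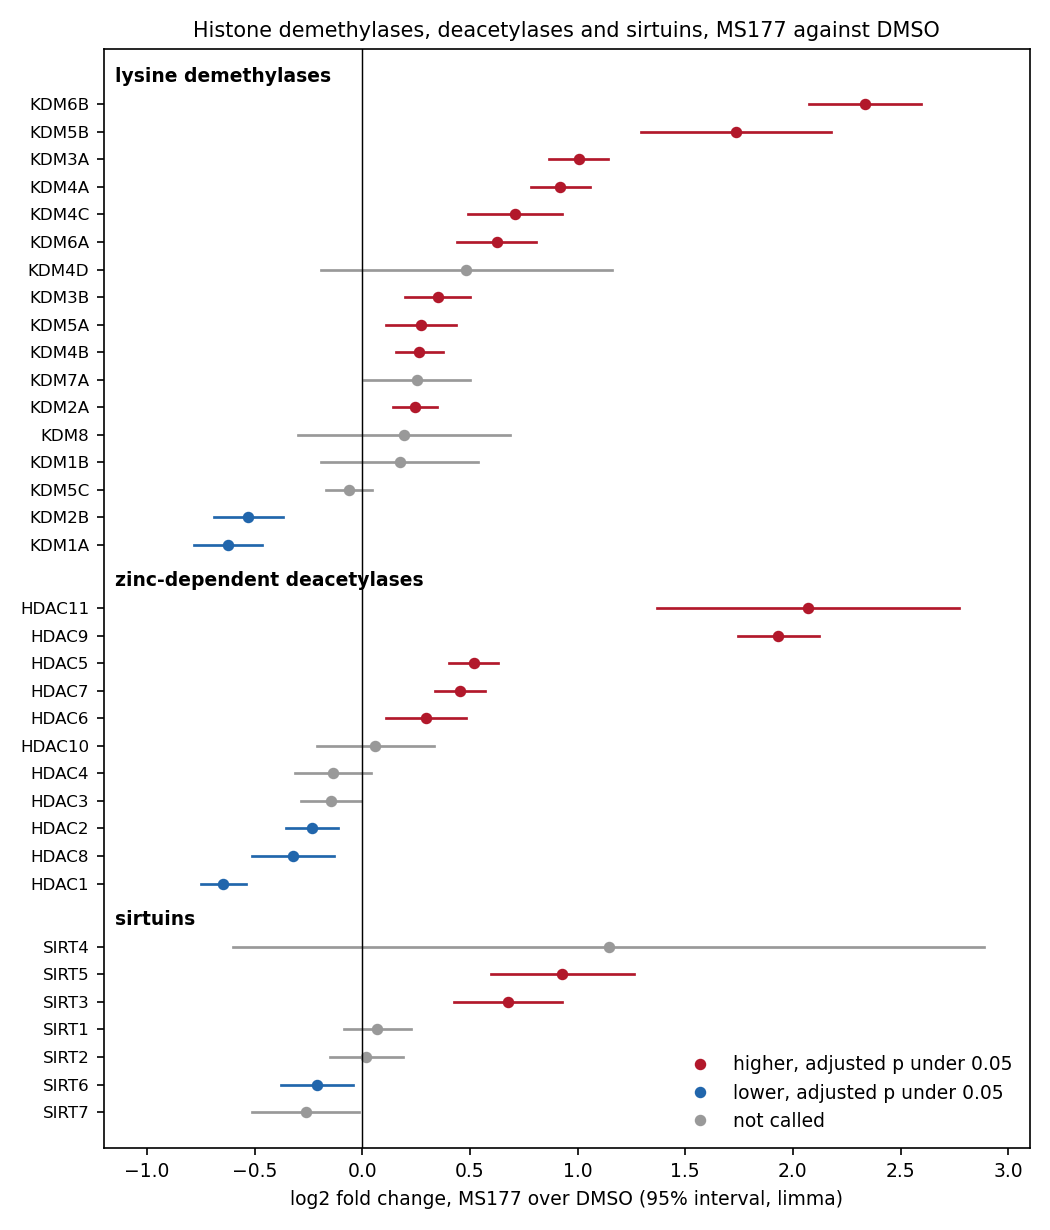
Each point is the limma log2 fold change of 1 member in MS177 over DMSO, with its 95% interval as a bar, by enzyme class on the vertical axis (red, called higher; blue, called lower; grey, not called). KDM6B at 2.34, HDAC11 at 2.07, HDAC9 at 1.93 and KDM5B at 1.74 stand to the right of the other called members, and HDAC1 at -0.64 and KDM1A at -0.62 stand farthest to the left.

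KDM6A and KDM6B, which act on H3K27 trimethylation, both rose. KDM6B, also called JMJD3, is known as a gene that inflammatory and stress signals induce. It had 1081 and 993.2 normalized reads with MS177, 187.8 and 190.1 with MS177N1, 164.3 and 200.2 with C24, and 200.3 and 208.6 in DMSO. The MS177 libraries stood far above the other 6. The level was 5.05-fold that of DMSO (log2 fold change 2.34, SE 0.12, limma adjusted p = 2.93e-10). KDM6A, also called UTX, is a subunit of the MLL3 and MLL4 methyltransferase complexes. It stood at 916.2 and 1022 with MS177, at 610.6 and 664.8 with MS177N1, at 618.8 and 663.6 with C24, and at 621.9 and 633.6 in DMSO. Again no MS177 library overlapped the others, with a log2 fold change of 0.62 (SE 0.09, limma adjusted p = 1.34e-05), or 1.54-fold. Its promoter window holds the AP-1 motif and E-box marked in capitals, and a link of these matches to its rise was not tested. Per kb of transcript, KDM6B had 154.5 normalized reads with MS177 and 30.5 in DMSO, and KDM6A had 178.2 with MS177 and 115.4 in DMSO. By this measure KDM6A was the higher of the pair in both groups, by less with MS177. In mean normalized reads with MS177, KDM6B (1037) was above KDM6A (969.2). The order with MS177 thus rests on the length of the 1 transcript taken for each gene (6713 bases for KDM6B and 5438 for KDM6A).

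Among the enzymes that act on H3K4 methylation, KDM5B rose and KDM1A fell. KDM5B removes methyl groups from H3K4. It had 259.3 and 378.8 normalized reads with MS177, 85.0 and 83.7 with MS177N1, 83.9 and 75.2 with C24, and 107.9 and 80.8 in DMSO. The lower MS177 library was still above every other library, and the level was 3.33-fold that of DMSO (log2 fold change 1.74, SE 0.21, limma adjusted p = 2.97e-06). KDM5A, a paralog with the same substrate, also rose (0.27, SE 0.08, limma adjusted p = 0.00607). Its call was lost without MS177 replicate 2 (0.17), without DMSO replicate 1 (0.19) and with limma run without its trend and robust options (adjusted p = 0.0717). KDM5C was not called (-0.06, 95% interval -0.17 to 0.04). KDM1A, or LSD1, removes methyl groups from H3K4 as the demethylase of the CoREST complex. It was measured at 1109 and 1273 with MS177, 1841 and 1690 with MS177N1, 1694 and 1795 with C24, and 1801 and 1863 in DMSO. Both MS177 libraries lay below the other 6, and the log2 fold change was -0.62 (SE 0.07, limma adjusted p = 2.68e-06), 1.54-fold lower than DMSO. Its paralog KDM1B was not called (0.17, 95% interval -0.19 to 0.54), except without MS177 replicate 1 (0.43, adjusted p = 0.0473).

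Both members with a KDM3 name rose, beside 28.9% of all genes called higher. KDM3A acts on H3K9 and is known as a hypoxia-induced gene. With MS177 it had 4391 and 4936 normalized reads, against 2379 and 2335 with MS177N1, 2360 and 2141 with C24, and 2294 and 2341 in DMSO. The 2.01-fold difference from DMSO (log2 fold change 1.01, SE 0.06, limma adjusted p = 2.73e-09) left no overlap between MS177 and any other library. KDM3B, its paralog, rose less (0.35, SE 0.07, limma adjusted p = 0.000549).

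KDM4 enzymes act on H3K9 and, apart from KDM4D, on H3K36. Of their 4 listed members 3 rose, beside 28.9% of all genes called higher. KDM4A was at 2214 and 2381 with MS177, 1261 and 1288 with MS177N1, 1160 and 1180 with C24, and 1191 and 1235 in DMSO. It was 1.89-fold higher with MS177 than in DMSO (log2 fold change 0.92, SE 0.06, limma adjusted p = 7.33e-09), with both MS177 libraries above the rest. KDM4C had 809.1 and 935.3 with MS177, 525.6 and 603.0 with MS177N1, 491.3 and 557.4 with C24, and 550.3 and 514.3 in DMSO. Its MS177 libraries too lay above the other 6 (log2 fold change 0.71, SE 0.10, limma adjusted p = 2.19e-05). KDM4B, which was higher than both per kb in both groups (542.5 with MS177 and 451.1 in DMSO), rose by 0.27 (SE 0.05, limma adjusted p = 0.000380). KDM4D, which has few reads (29.4 to 59.9 over all libraries) and close copies that could share them, was not called (0.48, 95% interval -0.19 to 1.16). KDM4A has an antisense transcript, KDM4A-AS1, and the counting is not stated to use strand, so reads of such pairs cannot be told apart. KDM4A-AS1 had 10.5 to 37.4 normalized reads, few beside those of KDM4A.

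KDM2 enzymes bind unmethylated CpG islands and act on H3K36, and here they went in opposite directions. KDM2A, second among all members per kb in both groups (1098 with MS177 and 926.1 in DMSO), rose by 0.25 (SE 0.05, limma adjusted p = 0.000336). KDM2B, which brings a variant Polycomb repressive complex 1 to CpG islands, fell by 0.53 on the log2 scale (SE 0.08, limma adjusted p = 1.87e-05), to a mean of 742.5 ± 2.81 with MS177, against 1072 ± 34.1 in DMSO (SD, n = 2 each). KDM7A, which acts on H3K9 and H3K27 dimethylation, was not called (0.25, 95% interval 0.01 to 0.50, limma adjusted p = 0.0735). It passed the threshold without MS177 replicate 1 (0.40), without DMSO replicate 2 (0.36) and with libraries scaled by their total reads (0.34). The change was 0.11 without MS177 replicate 2, 0.15 without DMSO replicate 1 and 0.13 with the trend over length and GC content removed. Its antisense neighbour JHDM1D-AS1 had 11.8 to 45.4 normalized reads, against 355.6 to 523.7 for KDM7A. KDM8, a JmjC protein also described as an arginine hydroxylase, was not called (0.19, 95% interval -0.30 to 0.69).

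**Figure D2:**
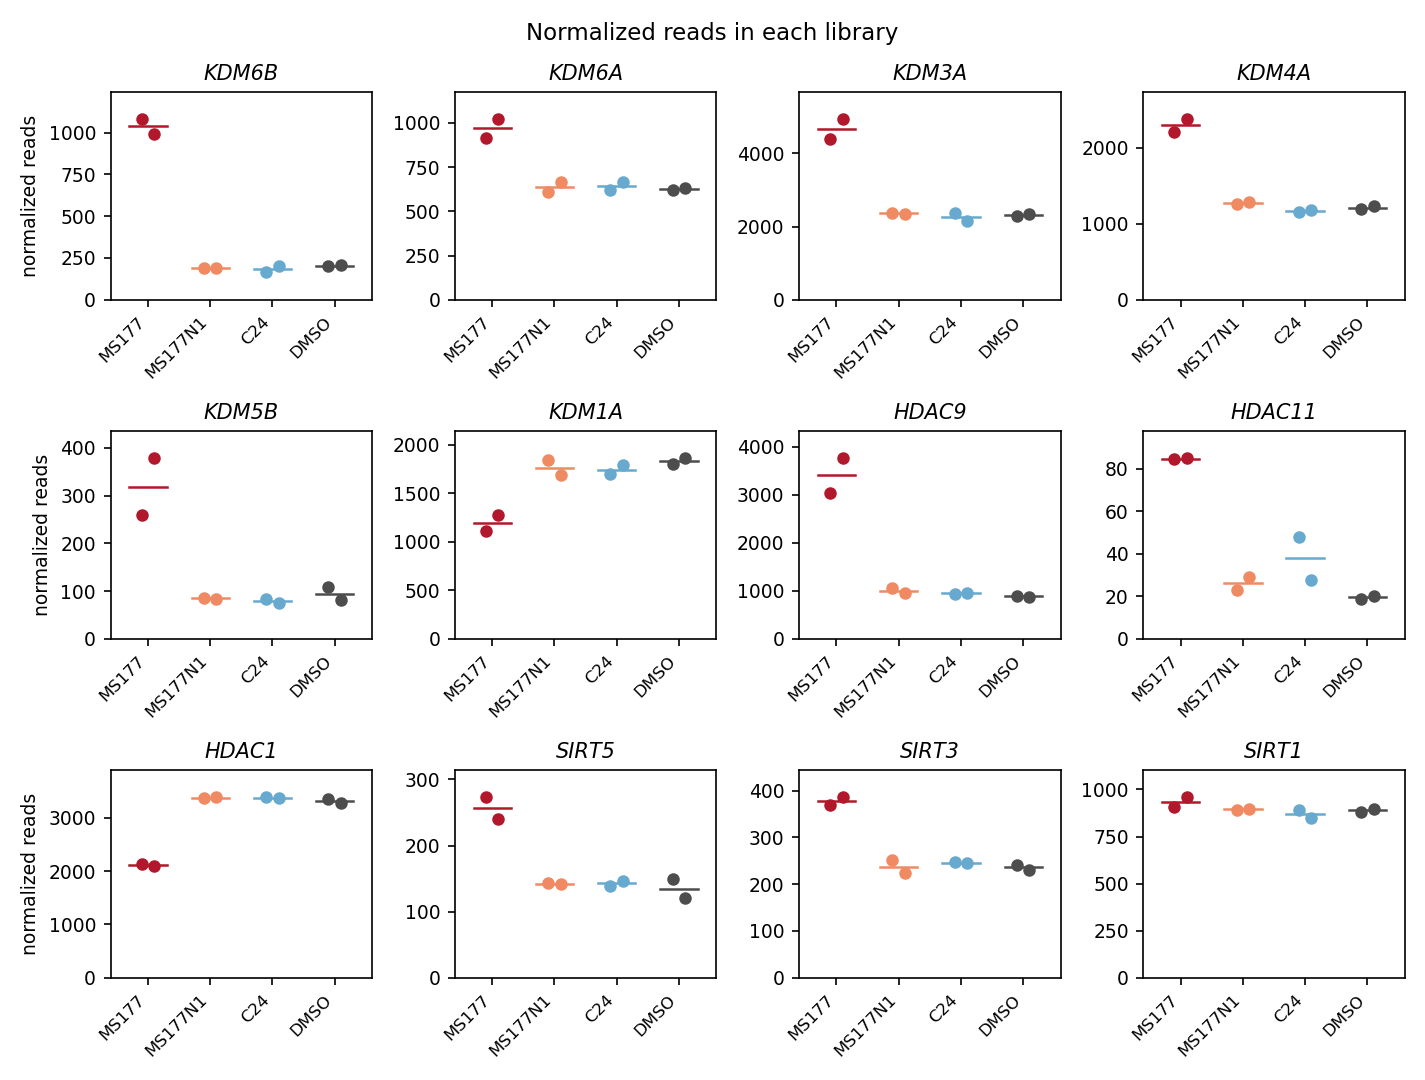
Normalized reads (vertical axis, starting at 0) of 12 members in each of the 8 libraries, with MS177, MS177N1, C24 and DMSO from left to right; points are libraries and short lines are group means. KDM6B, KDM6A, KDM3A, KDM4A, KDM5B, HDAC9, HDAC11, SIRT5 and SIRT3 are higher with MS177 and KDM1A and HDAC1 lower, while the SIRT1 libraries lie between 847.2 and 959.6.

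Deacetylases moved in both directions. Of the 4 class I enzymes, 0 rose and 3 fell, and of the 4 class IIa enzymes, 3 rose and 0 fell, beside 28.9% of all genes called higher and 29.0% lower. Without DMSO replicate 1 the class I falls numbered 2, HDAC8 no longer being called. HDAC1, a class I catalytic subunit of NuRD, SIN3 and CoREST, had 2136 and 2105 normalized reads with MS177, 3366 and 3390 with MS177N1, 3390 and 3370 with C24, and 3347 and 3283 in DMSO. The replicates of each group nearly coincided, and the MS177 libraries lay well below the rest (log2 fold change -0.64, SE 0.05, limma adjusted p = 2.20e-08; 1.56-fold lower). HDAC1 was 4th of the 35 members per kb with MS177 (998.1) and first in DMSO (1561). HDAC2, its close paralog in the same complexes, stood at 2239 and 2397 with MS177, 2615 and 2498 with MS177N1, 2675 and 2796 with C24, and 2726 and 2723 in DMSO. It fell by 0.23 on the log2 scale (SE 0.06, limma adjusted p = 0.00220), and the MS177 libraries were below the others by a small margin. HDAC3, the deacetylase of the NCoR complex, had 1626 and 1545 with MS177, 1605 and 1638 with MS177N1, 1714 and 1617 with C24, and 1835 and 1674 in DMSO. These groups overlapped, and HDAC3 was not called (-0.14, 95% interval -0.285 to -0.00488, limma adjusted p = 0.0715), though it was without MS177 replicate 1 (-0.18) or without DMSO replicate 2 (-0.21). The change was -0.0787 without DMSO replicate 1, -0.06 with total-read scaling and -0.07 with the trend over length and GC content removed. HDAC8, which deacetylates the cohesin subunit SMC3, fell by 0.32 (SE 0.09, limma adjusted p = 0.00600), a call lost without DMSO replicate 1 (-0.26, adjusted p = 0.0576).

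Class IIa enzymes shuttle between nucleus and cytoplasm and repress MEF2 factors. HDAC9 had 3041 and 3767 normalized reads with MS177, against 1049 and 958.6 with MS177N1, 931.2 and 958.9 with C24, and 900.3 and 872.9 in DMSO. The 3.81-fold difference from DMSO (log2 fold change 1.93, SE 0.09, limma adjusted p = 8.58e-11) was much larger than the gap between its 2 MS177 libraries. HDAC9 was by level per kb 3rd of the members with MS177 (1060) and 14th in DMSO (276.2). HDAC5 was at 2910 and 3015 with MS177, 2137 and 2162 with MS177N1, 2112 and 2139 with C24, and 2053 and 2087 in DMSO (log2 fold change 0.52, SE 0.05, limma adjusted p = 6.31e-07). HDAC7 was at 4882 and 4434 with MS177, 3330 and 3350 with MS177N1, 3192 and 3314 with C24, and 3409 and 3390 in DMSO (0.45, SE 0.05, limma adjusted p = 3.13e-06). In both, each MS177 library lay above the other 6, and HDAC7 was first of all members per kb with MS177 (1137, against 830.0 in DMSO). HDAC4, the other class IIa enzyme, was not called (-0.14, 95% interval -0.31 to 0.04).

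HDAC11, the sole class IV enzyme, is also known to remove fatty acyl groups. It was a low gene, at 84.7 and 85.1 with MS177, 23.1 and 29.1 with MS177N1, 47.9 and 27.6 with C24, and 18.7 and 20.2 in DMSO. The MS177 pair was above every other library, at 4.20-fold the DMSO level (log2 fold change 2.07, SE 0.33, limma adjusted p = 5.73e-05), while 1 C24 library stood apart from the other. HDAC6, the class IIb enzyme that deacetylates tubulin, had 636.5 and 702.4 with MS177, 542.4 and 557.5 with MS177N1, 567.4 and 533.1 with C24, and 545.9 and 544.1 in DMSO. It rose by 0.29 (SE 0.09, limma adjusted p = 0.00895), and lost its call without MS177 replicate 2 (0.22, adjusted p = 0.0779). HDAC10, known as a polyamine deacetylase, was not called (0.06, 95% interval -0.21 to 0.33).

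Among sirtuins the called rises were in enzymes of mitochondria. SIRT5, which removes succinyl and malonyl groups, had 273.3 and 240.4 normalized reads with MS177, 142.7 and 141.9 with MS177N1, 139.5 and 146.0 with C24, and 148.6 and 121.1 in DMSO. It was 1.90-fold higher than in DMSO, with no overlap (log2 fold change 0.93, SE 0.16, limma adjusted p = 9.61e-05). SIRT3, the main deacetylase of mitochondria, stood at 369.7 and 386.3 with MS177, 250.7 and 223.7 with MS177N1, 246.5 and 244.4 with C24, and 241.0 and 230.7 in DMSO. It too was apart in MS177 (0.68, SE 0.12, limma adjusted p = 0.000132). SIRT4, the remaining mitochondrial sirtuin, had 2.20 to 14.6 normalized reads over the 8 libraries and was not called (1.14, 95% interval -0.60 to 2.89).

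Of the 4 sirtuins outside mitochondria, 0 rose and 1 fell, beside 28.9% of all genes called higher and 29.0% lower. SIRT1, which deacetylates p53 and FOXO factors, had 907.7 and 959.6 with MS177, 890.7 and 897.6 with MS177N1, 891.8 and 847.2 with C24, and 882.7 and 896.0 in DMSO. The MS177 libraries were above the rest by a narrow margin, and SIRT1 was not called (0.07, 95% interval -0.09 to 0.22). SIRT6, a chromatin deacetylase, was measured at 929.1 and 826.8 with MS177, 955.7 and 983.1 with MS177N1, 985.1 and 1026 with C24, and 1057 and 971.0 in DMSO. It fell by 0.21 (SE 0.08, limma adjusted p = 0.0332), the call nearest the threshold. That call was lost without MS177 replicate 2, without DMSO replicate 1, without either MS177N1 library, with total-read scaling, with only the 2 groups in the fit and without limma's trend and robust options (adjusted p 0.0532 to 0.237). SIRT7, a nucleolar sirtuin, was not called (-0.26, 95% interval -0.51 to -0.01, limma adjusted p = 0.0671) but was without MS177 replicate 1 (-0.48), which held 590.5 normalized reads against 434.9 in MS177 replicate 2 and 609.7 and 605.7 in DMSO. Without MS177 replicate 2 the change was -0.0415, so its size rests on that library. SIRT2, a cytosolic tubulin deacetylase, was not called either (0.02, 95% interval -0.15 to 0.19).

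Neither MS177N1 nor C24, at the same dose and time as MS177, gave a called change in any member. Against DMSO, limma called 0 of the 35 with MS177N1 (0.0353% of all genes, or 5 genes) and 0 with C24 (0.0918%, or 13 genes). At an unadjusted p under 0.05 there were 0 members with MS177N1 and 2 with C24, beside 718 and 762 of all genes. The members were KDM4B (-0.14, limma adjusted p = 0.897) and HDAC11 (0.87, limma adjusted p = 0.907). Limma run without its trend and robust options also called 0 members in each. A missed threshold does not show that a compound did nothing, so intervals are given. For 30 members the 95% interval of the log2 fold change against DMSO lay within 0.50 of 0 on either side with MS177N1, and for 30 with C24. The 5 others in each comparison were HDAC11, KDM4D, KDM5B, KDM8 and SIRT4, all of low reads. For KDM6B the interval was -0.37 to 0.15 with MS177N1 and -0.43 to 0.09 with C24, and for KDM6A -0.16 to 0.20 with MS177N1 and -0.15 to 0.21 with C24. For HDAC9 it was -0.01 to 0.36 with MS177N1 and -0.10 to 0.28 with C24, for HDAC1 -0.08 to 0.13 with each, and for HDAC11 -0.303 to 1.099 with MS177N1 and 0.17 to 1.57 with C24. MS177N1 and C24 were also set against each other: 0 members were called (0.0141% of all genes, or 2 genes), 0 at an unadjusted p under 0.05 beside 634 of all genes, and the interval lay within 0.50 of 0 for 30. As single libraries were left out, the members called stayed at 0 in these 3 comparisons, while the genes called over the whole table moved. Without MS177 replicate 1 or 2 they numbered 19 or 18 for MS177N1 against DMSO, 28 or 27 for C24 against DMSO and 13 or 11 for MS177N1 against C24. For MS177N1 against DMSO they were 1 without C24 replicate 1 and 0 without C24 replicate 2 or DMSO replicate 2, and for MS177N1 against C24 they were 1 without MS177N1 replicate 1 and 0 without either C24 library.

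**Figure D3:**
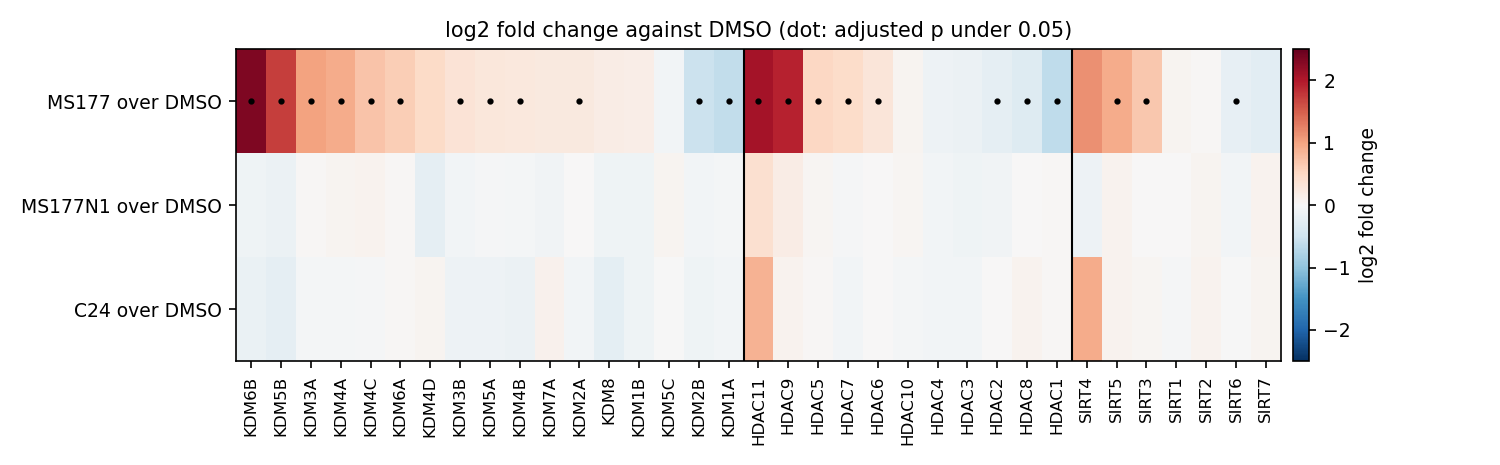
Colour gives the limma log2 fold change of each member (columns, by class and in the order of their change with MS177) for MS177, MS177N1 and C24 over DMSO (rows); dots mark an adjusted p under 0.05. The MS177 row holds all 23 dots, and the stronger colours in the C24 row are HDAC11 at 0.87 and SIRT4 at 0.93, neither of them called.

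Set directly against its related compounds, MS177 again raised more members than it lowered. The comparisons with MS177N1, C24 and DMSO share the MS177 libraries and are not independent of one another. Against MS177N1, 18 members were higher and 7 lower (28.8% and 28.6% of all genes). KDM6B had a log2 fold change of 2.45 (SE 0.12), KDM5B of 1.88 (SE 0.21), HDAC9 of 1.75 (SE 0.09), HDAC11 of 1.67 (SE 0.33), KDM3A of 0.98 (SE 0.06) and KDM6A of 0.60 (SE 0.09). On the lower side were HDAC1 at -0.67 (SE 0.05) and KDM1A at -0.57 (SE 0.07). Called here and not against DMSO were KDM7A (0.35), KDM5C (-0.13) and SIRT7 (-0.35), while SIRT6 was not called (-0.15, limma adjusted p = 0.130). The calls of HDAC2 (-0.14), KDM5C, KDM7A and SIRT7 against MS177N1 were lost under several alternatives. Without the trend and robust options, the limma adjusted p was 0.0981 for KDM5C, 0.0683 for KDM7A and 0.102 for SIRT7. KDM5A also lost its call without these options (limma adjusted p = 0.0575) and without MS177N1 replicate 2. The HDAC6 call was lost without MS177 replicate 2 or without MS177N1 replicate 1.

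Against C24, the inhibitor without the CRBN ligand, 17 members were higher with MS177 and 7 lower (29.1% and 29.0% of all genes). KDM6B stood at 2.51 (SE 0.12), KDM5B at 1.97 (SE 0.21), HDAC9 at 1.84 (SE 0.09), KDM3A at 1.05 (SE 0.06), SIRT5 at 0.84 (SE 0.16), SIRT3 at 0.62 (SE 0.12) and KDM6A at 0.59 (SE 0.09) on the log2 scale. The falls included HDAC1 (-0.67, SE 0.05), KDM1A (-0.55, SE 0.07), KDM2B (-0.43, SE 0.08) and HDAC8 (-0.42, SE 0.09). SIRT7 (-0.33, limma adjusted p = 0.0233) and SIRT6 (-0.20, limma adjusted p = 0.0419) were called lower. Both calls were lost with total-read scaling, without limma's trend and robust options, without MS177 replicate 2, without either C24 library and with the trend over length and GC content removed, where SIRT7 was at -0.21 and SIRT6 at -0.0176. SIRT6 also lost its call with only the 2 groups in the fit and without either MS177N1 library. HDAC11 was 2.29-fold higher (SE of the log2 fold change 0.33, limma adjusted p = 0.00548), with a log2 fold change of 0.81 without C24 replicate 2, where it was not called (adjusted p = 0.0858). HDAC6 lost its call against C24 without MS177 replicate 2 or without C24 replicate 2.

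Partners, opposing enzymes and cofactor genes were taken as 6 lists from textbook knowledge. Of 39 tested subunits of HDAC co-repressor complexes, 11 rose and 11 fell with MS177 against DMSO (median log2 fold change 0.06), each a share close to that of all genes (28.9% called higher and 29.0% lower). ARID4A of the SIN3 complex rose most (1.44, SE 0.18, limma adjusted p = 5.86e-06), to 359.0 and 457.3 normalized reads with MS177, against 121.1 and 181.7 in DMSO. PHF21A, the CoREST subunit that binds unmethylated H3K4, rose to 1103 and 1101 with MS177, against 538.2 and 511.5 in DMSO (1.07, SE 0.09). ING2 of SIN3 fell to 171.5 and 164.6 with MS177, against 389.6 and 309.6 in DMSO (-1.04, SE 0.13), and GATAD2A of NuRD to 2044 and 2078 with MS177, against 3244 and 3173 in DMSO (-0.64, SE 0.05). In all 4 genes the MS177 libraries stood apart from the DMSO libraries. They were picked by their called change in this same comparison, so that separation adds no support.

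Histone acetyltransferases and their partner subunits, which add what deacetylases remove, had more rises than falls. Of 20, 12 rose and 3 fell, beside 28.9% and 29.0% of all genes, and the median of 0.26 was 0.17 with the trend over length and GC content removed. BRPF3, a scaffold of acetyltransferase complexes, rose by 0.96 (SE 0.07) and the coactivator NCOA2 by 0.70 (SE 0.07), with 2430 and 2505 normalized reads of BRPF3 with MS177 and 1247 and 1285 in DMSO. KAT2A, the acetyltransferase of SAGA, fell by 0.71 (SE 0.06) to 1331 and 1346 with MS177, against 2207 and 2159 in DMSO, and HAT1, which acetylates new histones, fell by 0.45 (SE 0.06). Of 27 lysine methyltransferases outside PRC2, 10 rose and 10 fell (median -0.01). KMT2A, an H3K4 methyltransferase, had 3278 and 3647 with MS177 and 1680 and 1815 in DMSO (0.99, SE 0.07), and ASH1L, which methylates H3K36, rose by 0.62 (SE 0.07). SUV39H2, an H3K9 methyltransferase, fell by 0.76 (SE 0.09), and SETMAR by 0.69 (SE 0.18).

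Of 13 tested JmjC proteins outside the KDM names, 2 rose and 5 fell (median -0.04), beside 28.9% and 29.0% of all genes. JMJD1C, a relative of KDM3A, rose to 2319 and 2733 with MS177, against 978.5 and 1054 in DMSO (1.31, SE 0.08), and TYW5, a tRNA hydroxylase, rose by 0.70 (SE 0.16). C14orf169, also called RIOX1, a ribosomal oxygenase, fell by 0.77 (SE 0.13), and JMJD6 by 0.29 (SE 0.08). The difference between these counts and those of the KDM genes was not tested.

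Of 15 tested genes of NAD synthesis and use, 4 rose and 4 fell (median 0.15), each share close to that of all genes (28.9% called higher and 29.0% lower). NUDT12, which hydrolyses NADH, rose by 1.51 (SE 0.20), and NMNAT3, an NAD-synthesizing enzyme, by 0.73 (SE 0.19), a call lost without DMSO replicate 1 (0.51, limma adjusted p = 0.0515). PARP1, an abundant NAD consumer, had 17400 and 17440 normalized reads with MS177 and 31460 and 32000 in DMSO (-0.87, SE 0.04), and SARM1, an NAD-cleaving enzyme, fell by 0.82 (SE 0.17). Of 19 genes that supply 2-oxoglutarate or handle its competitors, 5 rose and 8 fell (median -0.05). PSAT1, which makes 2-oxoglutarate in serine synthesis, rose to 6708 and 7006 with MS177, against 3027 and 2826 in DMSO (1.23, SE 0.05), and IDH1 rose by 0.64 (SE 0.10). IDH3A of the citric acid cycle fell by 0.56 (SE 0.06). With total-read scaling the medians of 3 lists changed sign, to 0.03 for 2-oxoglutarate, 0.04 for JmjC proteins and 0.07 for methyltransferases, and those of the co-repressor subunits and NAD genes became 0.14 and 0.23. With the trend over length and GC content removed, the co-repressor median was 0.00883, that of NAD genes 0.23 and that of 2-oxoglutarate -0.0182. That of JmjC proteins was -0.10, over only the 11 of the 13 tested genes that had a transcript length. With MS177N1 and C24 against DMSO, 0 genes of any list were called.

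**Figure D4:**
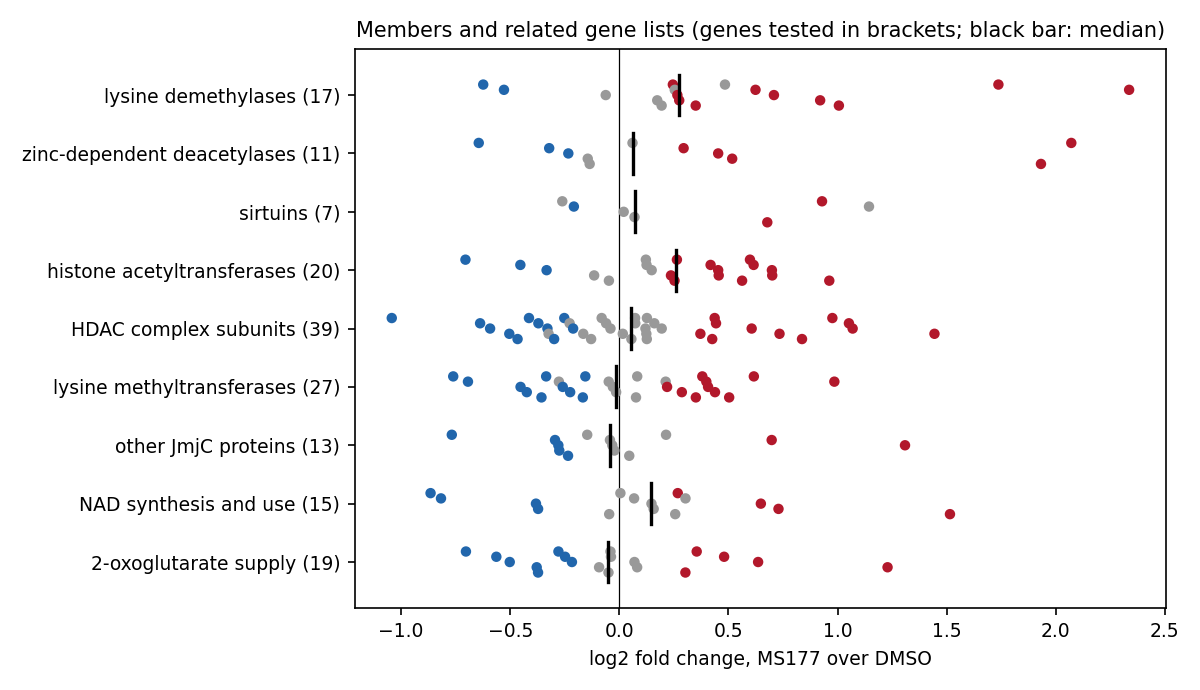
Each point is the log2 fold change of 1 gene in MS177 over DMSO, for the 3 classes of members and the 6 lists (rows, with the number tested), coloured by call (red, higher; blue, lower; grey, not called); black bars are medians. Lysine demethylases and histone acetyltransferases have medians of 0.27 and 0.26, and the other rows lie between -0.05 and 0.15.

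Transcript length moved with the direction of change over all genes. Among the longest genes tested, those of 4877 bases or more, 39.3% were higher and 24.3% lower with MS177 than in DMSO, and among those of 2013 bases or fewer 19.6% were higher and 37.0% lower. The members are long, with a median of 4196 bases against 3122 over all genes. The longest held 14 of the 35, of which 9 rose and 2 fell, and the shortest held 4, of which 0 rose and 1 fell. After the trend over length and GC content was removed from all genes, an alternative chosen after seeing the data, 17 members were called higher and 7 lower. SIRT6 was then no longer called (-0.01), and HDAC4 (-0.24) and KDM5C (-0.14) were called lower.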

How the data were processed

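RNA of 8 MM1.S libraries was made into libraries with the NEBNext Ultra II kit, per the labels' protocols. Build hg19, STAR 2.4.2, Salmon 0.1.19 and DESeq2 1.38.2 are named in the submitters' processing notes. The deposited values are log2 values that the authors normalized, per the file headers, and no table of counts was used. Their common lowest value, 5.967655733, corresponds to no reads on a variance-stabilised scale. Inverting that scale gave whole reads within 0.01 for 130360 of 130360 values, with size factors equal to median-of-ratios factors, so the recovered reads were used. A gene was tested if 2 or more libraries held 10 or more of its reads, scaled to the median library, and its total was 15 or more (14164 genes; 2131 left out). Log2 of normalized reads plus 1 was fitted with limma 3.58.1 in R 4.3.3, its trend and robust options on (with statmod 1.5.0) and all 4 groups in 1 fit, with 6 pairwise comparisons and Benjamini-Hochberg adjustment over all genes tested. Fold changes are on that scale and understate the change of low genes. The fit was tested on simulated data with known changes in far fewer genes than were called here with MS177. That test does not cover so broad a change.

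The members and lists were chosen with earlier results of these data known. Every member is named. Values in every library are given for up to 5 called members of each class with the largest changes against DMSO and for KDM6A, KDM6B, KDM1A, HDAC1, HDAC2, HDAC3, HDAC6 and SIRT1; of each list, the 2 largest called rises and falls are named, except 1 result that is not reported here. Levels per kb use 1 GENCODE transcript per gene (the principal one, then the longest), and promoter windows are RefSeq, GRCh38.p14, whose coordinates are not those of the authors' build. Alternatives were other pseudocounts (0.5 and 5), no filter, TMM and total-read scaling, the deposited log2 values as they stand, only the 2 groups compared, a replicate block, limma without its options, each library left out, and, chosen after seeing the data, removal of the trend over length and GC content (85.4% of listed genes had a length).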

Additional observations from a re-analysis of the deposited data

How the results depend on the processing

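The members called in MS177 against DMSO numbered 20 to 27 as single libraries were left out, against 23 in all. In the 6 comparisons the total of members called stayed within 1.5 times of that reported under every alternative run. Of the counts by direction, the 7 members lower against MS177N1 became 4 with total-read scaling, without limma's options and without MS177N1 replicate 1. The genes called over the whole table in the comparisons without MS177 rested on few genes and moved. For MS177N1 against DMSO, 5 genes became 9 with a pseudocount of 5, 3 with total-read scaling, 8 with the deposited values, 17 with only the 2 groups, 11 with the replicate block, 0 without limma's trend and robust options, 2 with the trend over length and GC taken out, and 0 to 19 with 1 library left out. For C24 against DMSO, 13 became 20 with the replicate block, 1 without the options and 10 to 28 with 1 library left out. For MS177N1 against C24, 2 became 1 with a pseudocount of 5, 28 with only the 2 groups, 6 with that trend taken out and 0 to 13 with 1 library left out. Of 630 values of single members per comparison with MS177, 601 kept their direction and call against DMSO, 589 against MS177N1 and 600 against C24. Of the 25 signs that turned, 0 belonged to a called result. With total-read scaling, which raises the median of all genes by 0.09 in MS177 against DMSO, KDM5C became 0.0221 against DMSO and 0.0289 against C24, HDAC3 0.0417 against MS177N1 and 0.0146 against C24, HDAC4 0.0104 against MS177N1 and 0.0118 against C24, and SIRT2 0.0288 against MS177N1 and 0.0200 against C24. With the trend over length and GC content taken out, against MS177N1 HDAC3 became 0.0264, SIRT2 0.00130 and SIRT6 0.0234, and against C24 HDAC3 became 0.0194. With 1 library left out, against DMSO HDAC10 ran from -0.11 to 0.23, KDM1B from -0.0820 to 0.43, KDM8 from -0.0103 to 0.40 and SIRT2 from -0.0609 to 0.10. Against MS177N1, HDAC10 ran from -0.15 to 0.19, HDAC3 from -0.0696 to 0.00370 and SIRT2 from -0.13 to 0.0350. Against C24, HDAC10 ran from -0.0509 to 0.28, SIRT2 from -0.15 to 0.0151 and SIRT4 from -0.71 to 1.14. The cause was not tested. Samples that share a replicate number did not deviate together (correlations of -0.06 to 0.06), so the number was not taken to pair them; with it as a block 24 members were called, SIRT7 in addition (-0.26, limma adjusted p = 0.0497). With 2 libraries a group, the median half-width of a member's 95% interval was 0.18 on the log2 scale.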

Other observations

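Per kb of transcript, the mean levels of the members spanned 7.25 to 1137 normalized reads with MS177 and 2.88 to 1561 in DMSO. With MS177 the order began with HDAC7 (1137), KDM2A (1098), HDAC9 (1060), HDAC1 (998.1) and KDM3A (946.4). In DMSO it began with HDAC1 (1561), KDM2A (926.1), HDAC3 (895.4), HDAC7 (830.0) and KDM5C (662.9), and ended with KDM4D (11.9), KDM5B (9.12), HDAC11 (6.57) and SIRT4 (2.88). KDM6B stood at rank 23 with MS177 and at rank 31 in DMSO, and KDM1A at rank 13 with MS177 and at rank 7 in DMSO. KDM5B and HDAC11, with 3.33-fold and 4.20-fold changes, were among the 4 lowest members in both groups. EZH1, the paralog of EZH2 and no member, had 973.0 and 1088 normalized reads with MS177 and 553.6 and 599.9 in DMSO (log2 fold change 0.83, SE 0.09, limma adjusted p = 6.69e-07).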
